A study of Danio rerio with 2 samples.

Results

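Semaphorins and their receptors, the plexins and neuropilins, were examined in cells of zebrafish (Danio rerio) embryos sorted by whether they expressed EGFP. The members were taken by name, as every single-symbol row beginning with sema and a digit, plxn, nrp1 or nrp2. They were 27 of 14428 rows, of which 17 were ligands and 10 were receptors. The embryos carried the transgene crestin_1kb:EGFP, in which a fragment of the neural crest gene crestin drives the green fluorescent protein EGFP. At the stage labelled 15 SS they were homogenised, and the cells were sorted by flow cytometry. About 5500 EGFP-positive cells gave one library of total RNA, and about 100000 EGFP-negative cells of the same genotype gave the other. The EGFP-negative cells were the rest of the embryo and so a mixture of cell types. The labels do not say how many embryos were pooled.

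Semaphorins are secreted or membrane-bound guidance cues that mostly repel migrating cells and growing axons. Secreted class 3 semaphorins generally bind a neuropilin, which passes the signal on through a class A plexin, while membrane-bound semaphorins mostly bind plexins directly. In zebrafish, migrating cranial crest streams carry the neuropilins nrp2a and nrp2b, and class 3 semaphorins made beside their paths keep the streams apart. Levels are FPKM as the authors deposited them, that is, fragments per kilobase of gene and mapped library size. This scaling is meant to let levels be compared between genes, but the annotation and the scaling between libraries are not stated. A log2 ratio is log2(FPKM + 1) of EGFP-positive cells minus that of EGFP-negative cells, and a gene was called higher or lower when this was at least 2-fold. The added 1 FPKM shrinks the ratio of low genes, so a gene may differ 2-fold in plain FPKM and lie between the calls. Each group is a single library, so there is no spread between replicates and no test of any difference. The read depth is unknown.

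The sort was checked on crest genes, although crestin itself had no row and could not be checked. The crest factor sox10 stood at 147 FPKM in EGFP-positive cells and 16.3 FPKM in EGFP-negative cells, foxd3 at 86.7 and 7.04 FPKM, and tfap2a at 188 and 44.6 FPKM. The most abundant crest markers were twist1a (387 against 155 FPKM) and ets1 (272 against 183 FPKM, as ets1a). Of 18 crest markers that reached 1 FPKM, 14 were higher and none was lower. The list was chosen with earlier results of these data known, so this count is not an independent check. Markers of pronephros (6 of 8 higher, none lower) and hatching gland (5 of 8 higher, 1 lower) were also mostly higher in EGFP-positive cells. Across all 9685 rows that reached 1 FPKM in either library, 22.9% were called higher and 26.5% lower, and 23.1% were listed at 0 in one library.

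Of the 27 members, 24 reached 1 FPKM in at least 1 library. None of the 27 was listed at 0 in one library alone, but the ligands sema3h and sema7a were at 0 in both, and the receptor plxnb2b stayed under 1 FPKM, at 0.39 against 0.647 FPKM. Of the 24, 3 were higher, 6 were lower and 15 lay between. Of those 15, sema3gb, sema4ba and sema6a were over 2-fold apart in plain FPKM. The share of members called was close to the background, since 34.3% of the 7449 rows above 0 in both libraries were called in one direction or the other. Over all rows the deposited columns summed to 1.09e+06 FPKM in EGFP-positive cells and 894496 FPKM in EGFP-negative cells. Sums compared between the libraries therefore depend on the scale. On the deposited scale the summed FPKM of the 27 members was alike, at 649 in EGFP-positive cells and 638 in EGFP-negative cells. Within that sum the ligands made up 22.3% in EGFP-positive cells and 35.5% in EGFP-negative cells, a difference of -13.3 percentage points. These shares leave out sema4c (35.2 against 20.7 FPKM) and sema3b (5.92 against 9.07 FPKM), whose rows stood under clone names.

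**Figure D1:**
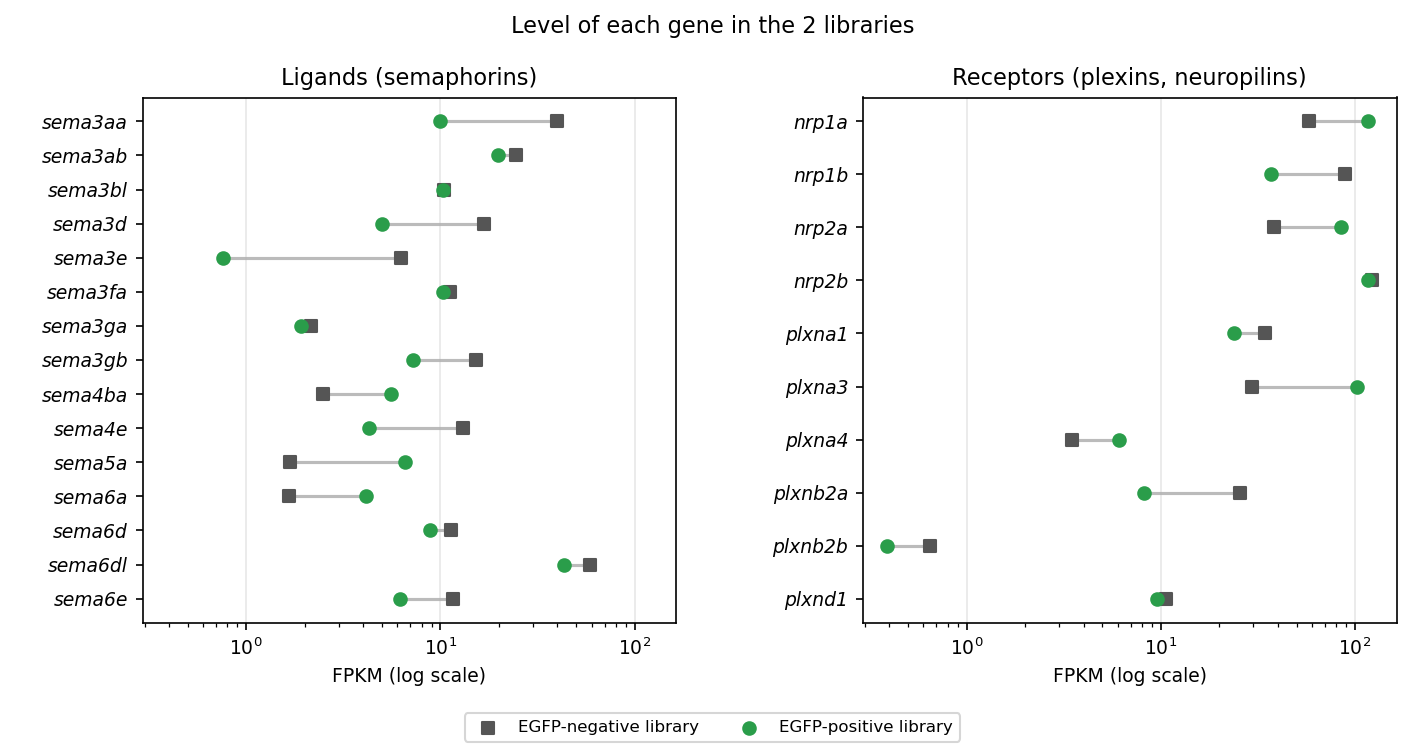
FPKM of each member above 0 in EGFP-positive cells (circles) and the EGFP-negative library (squares), on a log axis, with ligands on the left and receptors on the right. A line joins the single values of the 2 libraries. All 8 class 3 ligands shown have the circle at or to the left of the square, while plxna3 (102 against 29.4 FPKM), nrp1a and nrp2a have it to the right.

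Among the members, receptors were the more abundant side. Their summed level was 504 FPKM in EGFP-positive cells and 412 FPKM in EGFP-negative cells, of which the 4 neuropilins made up 70.3% and 74.7%. The size of the difference between these sums depends on the scale, since the column sums over all rows also differed. The 9 receptors that reached 1 FPKM divided into 2 higher, 2 lower and 5 between, beside 17.8% higher and 16.5% lower among rows above 0 in both libraries. They had a median log2 ratio of -0.07, beside -0.04 over all rows and 0.03 over rows above 0 in both libraries. In the EGFP-positive library the order was nrp2b, nrp1a, plxna3, nrp2a, nrp1b, plxna1, plxnd1, plxnb2a and plxna4. In the EGFP-negative library it was nrp2b, nrp1b, nrp1a, nrp2a, plxna1, plxna3, plxnb2a, plxnd1 and plxna4. With no spread between libraries of a group, it cannot be said which neighbours in these orders differ.

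Among the neuropilins, which bind the ligand, nrp2b was the most abundant receptor in both libraries and nearly level between them. It stood at 117 FPKM in EGFP-positive cells and 123 FPKM in EGFP-negative cells. Its duplicate nrp2a was called higher, at 84.3 against 38.4 FPKM, with a log2 ratio of 1.12. This call rests on the scale, since the log2 ratio was 0.95 when both libraries were brought to the same sum without the small nuclear RNA rn7sk. On the deposited scale, whose column sums differ, the nrp2 duplicates together stood at 201 and 161 FPKM. Nrp2a supplied 41.9% of that sum in EGFP-positive cells and 23.8% in EGFP-negative cells.

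The nrp1 duplicates lay in opposite directions. Nrp1a stood at 116 FPKM in EGFP-positive cells and 58.1 FPKM in EGFP-negative cells, a log2 ratio of 0.99, just short of the size called higher. With both libraries brought to the same sum without rn7sk, the log2 ratio of nrp1a was 0.82. Nrp1b was called lower, at 36.9 against 88.4 FPKM, a log2 ratio of -1.24. On the deposited scale, whose column sums differ, the sum of both was nearly the same in the libraries, at 153 and 147 FPKM. Nrp1a supplied 75.9% of it in EGFP-positive cells and 39.7% in EGFP-negative cells, so the more abundant duplicate was not the same one.

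The class A plexins carry the signal of the neuropilin complex across the membrane. Plxna3, which in zebrafish guides motor axons out of the spinal cord, stood at 102 FPKM in EGFP-positive cells and 29.4 FPKM in EGFP-negative cells. The ratio of FPKM was 3.46, and the log2 ratio of 1.76 was the highest of the 24 measured members and higher than that of 86.3% of all rows. Plxna1 stood at 23.7 against 34.3 FPKM and plxna4, known in zebrafish from sensory axons, at 6.11 against 3.51 FPKM, neither of them 2-fold apart. Plxna3 therefore exceeded plxna1 by 4.30 times in EGFP-positive cells, while in EGFP-negative cells it was at 0.857 of it. Class A members made up 87.9% of the summed FPKM of the plexin members in EGFP-positive cells and 64.7% in EGFP-negative cells. The plexin genes plxna1a, plxna2, plxnb1a, plxnb1b, plxnb3 and plxnc1 of the RefSeq gene table had no row.

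The other plexins were lower or level. Plxnb2a, a class B plexin of the kind that binds class 4 semaphorins, was called lower, at 8.22 against 25.5 FPKM, a log2 ratio of -1.52. Plxnd1, a receptor of endothelial cells, was nearly level, at 9.55 against 10.6 FPKM. The endothelial marker list was lower in the same comparison, with 7 of 13 members lower, 1 higher and 5 between. Its summed level was 254 against 913 FPKM. Among rows above 0 in both libraries 16.5% were lower and 17.8% higher. The most abundant were etv2 (55.5 against 407 FPKM) and egfl7 (33.6 against 134 FPKM). None of the 13 was listed at 0. The vascular cadherin cdh5, with the lowest log2 ratio of the list, was at 2.70 FPKM in EGFP-positive cells and 50.3 FPKM in EGFP-negative cells. The 1 higher marker was stab1 (4.50 against 1.13 FPKM, as stab1l). In bulk samples fewer cells of a type and less RNA per cell cannot be told apart, and the part of endothelial cells in the values of nrp1b and plxnd1 was not tested.

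**Figure D2:**
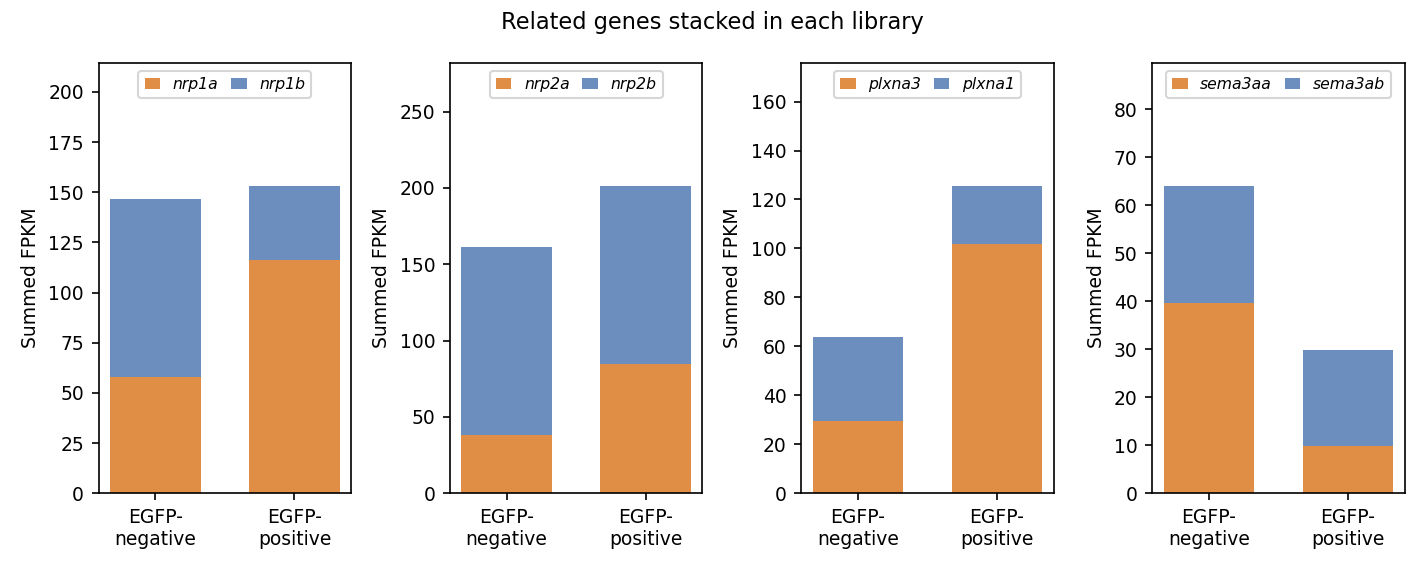
Stacked bars of FPKM for 4 pairs of related genes, with the EGFP-negative library at the left and the EGFP-positive library at the right of each panel and the axis starting at 0. The nrp1 bars are nearly equal in height (147 and 153 FPKM) but differ in make-up, the plxna bars differ through plxna3, and the sema3a bars differ through sema3aa.

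The ligand members were lower in sum, at 144 FPKM in EGFP-positive cells and 227 FPKM in EGFP-negative cells. The semaphorin genes sema3c, sema3fb, sema4aa, sema4ab, sema4bb, sema4d, sema4f, sema4ga, sema4gb, sema5ba, sema5bb, sema6ba and sema6bb of the RefSeq gene table had no row. Also outside this sum were sema4c (35.2 against 20.7 FPKM) and sema3b (5.92 against 9.07 FPKM), whose rows stood under clone names. Of 17 ligands, 15 reached 1 FPKM, and these divided into 1 higher, 4 lower and 10 between. Among all rows 26.5% were lower, and among rows above 0 in both libraries, as every measured ligand was, 16.5% were lower and 17.8% higher. By sign alone, 12 of the 15 were below their EGFP-negative level by any amount. The share was 51.5% among all rows and 48.9% among rows above 0 in both libraries. The median log2 ratio of the 15 ligands was -0.33, beside -0.04 over all rows and 0.03 over rows above 0 in both libraries.

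The class 3 ligands are secreted. Of 9, 8 reached 1 FPKM, and all 8 were below their EGFP-negative level, although only 3 of them were called lower, and sema3bl, sema3fa and sema3ga hardly differed. Among rows above 0 in both libraries 48.9% were below by any amount. The class 3 median log2 ratio was -0.63, and its summed level was 65.3 against 126 FPKM. Without sema3aa, the most abundant of them in EGFP-negative cells, the sums were 55.4 and 86.5 FPKM.

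Sema3aa, which zebrafish somites make and which confines motor axons and sprouting vessels, was called lower. It stood at 9.91 FPKM in EGFP-positive cells and 39.7 FPKM in EGFP-negative cells, a 4.0-fold ratio of FPKM and a log2 ratio of -1.90. Its duplicate sema3ab stood at 19.9 against 24.4 FPKM, so that sema3aa made up 33.3% of their sum in EGFP-positive cells and 62.0% in EGFP-negative cells. Somite and muscle markers were lower in the same comparison. Of 14 of these, 12 were lower and 1 higher, beside 26.5% and 22.9% of all rows, with a summed level of 91.7 against 424 FPKM. The most abundant were myod1 (29.4 against 61.6 FPKM) and meox1 (6.28 against 57.6 FPKM). The segmentation genes ripply1 and mespba were listed at 0 in EGFP-positive cells. The 1 higher marker, tnnt3b, at 8.29 FPKM, was listed at 0 in EGFP-negative cells. The part of somite cells in the sema3aa value was not tested.

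Sema3d and sema3e were the other lower class 3 ligands. Sema3d, which in zebrafish is needed for crest cells to reach the heart, stood at 5.03 FPKM in EGFP-positive cells and 16.8 FPKM in EGFP-negative cells, a log2 ratio of -1.56. Sema3e, known in mouse as a ligand that binds plexin D1 without a neuropilin, stood at 0.757 against 6.27 FPKM, and its log2 ratio of -2.05 was the lowest of all measured members. With a pseudocount of 5 FPKM it was -0.97, so the call ended. Log2 ratios had an SD of 1.27 over the 901 rows with a geometric mean from 1 to 5 FPKM and of 1.35 over the 2431 rows from 5 to 20 FPKM. Sema3e lies next to sema3ab in the gene order of RefSeq's GRCz12tu assembly, and these neighbours differed in log2 ratio, at -2.05 and -0.28.

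The other class 3 ligands included those tied to the cranial crest. Sema3fa, a cue that repels nrp2-bearing crest cells, was nearly level, at 10.3 FPKM in EGFP-positive cells and 11.2 FPKM in EGFP-negative cells. Sema3ga was low in both, at 1.91 against 2.17 FPKM. Sema3gb stood at 7.21 against 15.3 FPKM, 2.12 times apart, and its log2 ratio of -0.99 fell just short of the size called lower. Sema3bl was nearly equal, with a log2 ratio of -0.01 and 10.4 FPKM in each library after rounding.

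Membrane-bound ligands held the only one called higher. Sema5a, a ligand with thrombospondin repeats, stood at 6.54 FPKM in EGFP-positive cells and 1.68 FPKM in EGFP-negative cells, a 3.90-fold ratio of FPKM and a log2 ratio of 1.49. Of the class 4 ligands, sema4e was called lower, at 4.31 against 13.0 FPKM, and sema4ba was above its EGFP-negative level without reaching the call, at 5.57 against 2.49 FPKM. All of these levels were low, and with a pseudocount of 5 FPKM sema5a had a log2 ratio of 0.79 and sema4e one of -0.95, so both calls ended.

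Class 6 ligands are transmembrane proteins that bind class A plexins. None of the 4 was called, although sema6a differed 2.48-fold in plain FPKM. Sema6dl was the most abundant ligand in both libraries, at 43.5 FPKM in EGFP-positive cells and 58.6 FPKM in EGFP-negative cells. It made up 30.1% and 25.9% of the summed FPKM of the ligand members. Sema6d stood at 8.89 against 11.4 FPKM, sema6e at 6.16 against 11.7 FPKM and sema6a at 4.13 against 1.67 FPKM. In the RefSeq gene table sema6dl is an older name of sema6d, sema6e an older name of sema6cb, and sema6d both a current name and an older name of sema6ca, so the class 6 rows may carry other names today. Likewise plxna1 is an older name of plxna1b, plxnb2a of plxnb2a.1, and plxna4 was once also used for chchd3a.

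**Figure D3:**
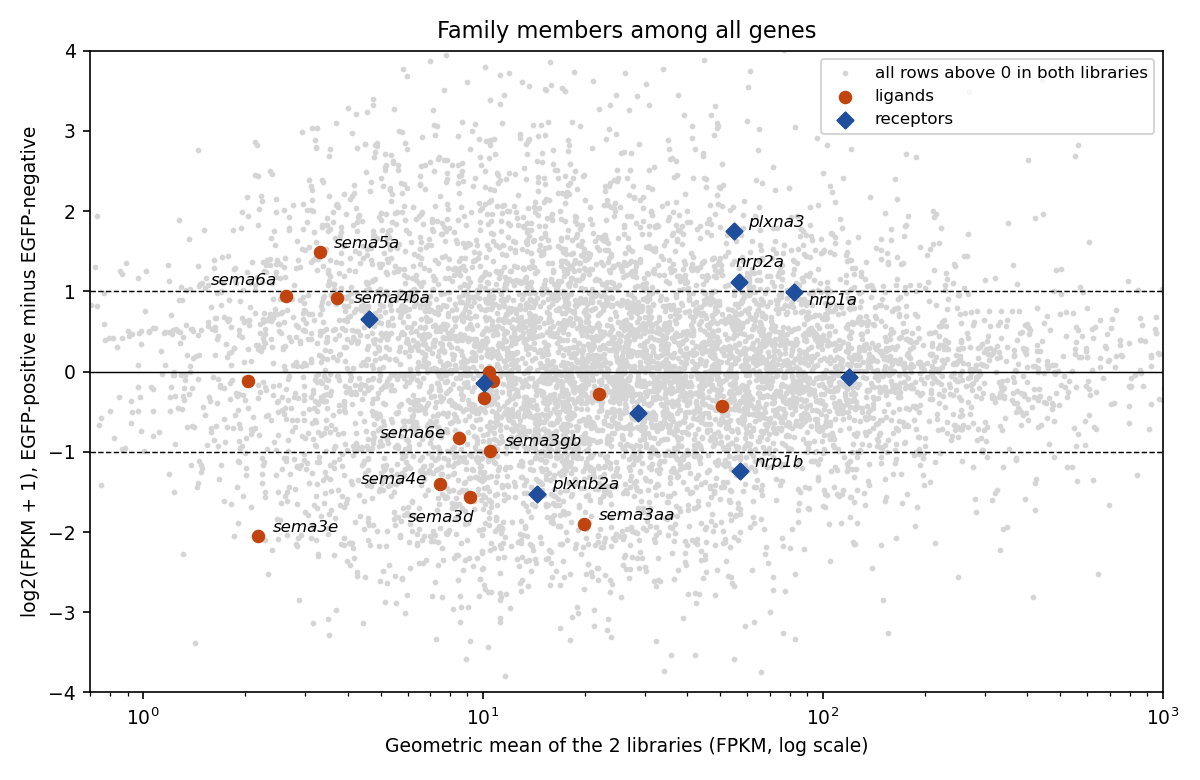
Log2 ratio (EGFP-positive minus EGFP-negative, FPKM + 1) against the geometric mean FPKM on a log axis, for the 7449 rows above 0 in both libraries (grey) and for 15 ligands (circles) and 9 receptors (diamonds). Dashed lines mark 2-fold, and 156 grey rows fall outside the axes. The members lie within the cloud of all rows, with plxna3 highest at 1.76 and sema3e lowest at -2.05.

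Read by level, the members' calls were about as frequent as those of other rows. Among members with a geometric mean from 5 to 20 FPKM, 4 of 10 were called, beside 43.1% of 2431 rows. From 20 to 100 FPKM it was 3 of 7, beside 30.9% of 2858 rows, and these 3 were nrp1b, nrp2a and plxna3. From 1 to 5 FPKM it was 2 of 6, namely sema3e and sema5a, beside 41.8% of 901 rows. From 100 to 1000 FPKM the only member was nrp2b, which was not called, beside 20.1% of 1088 rows that were.

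The intracellular genes of the pathway were counted next. Of 26 cytoplasmic effectors of plexins that reached 1 FPKM, 2 were higher and 7 lower, beside 22.9% and 26.5% of all rows, with a median log2 ratio of -0.43. The higher effectors belonged to the dpysl (CRMP) family, which relays semaphorin signals to microtubules. Dpysl3 stood at 37.1 FPKM in EGFP-positive cells and 15.1 FPKM in EGFP-negative cells, and dpysl4, at 62.7 FPKM, was listed at 0 in EGFP-negative cells. Relatives lay the other way, with dpysl5b, at 36.4 FPKM, listed at 0 in EGFP-positive cells and dpysl5a at 1.20 against 5.21 FPKM.

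The other lower effectors were of several kinds. Gipc1, an adaptor that binds the neuropilin tail, was at 161 FPKM in EGFP-positive cells and 486 FPKM in EGFP-negative cells. Rras, a small GTPase that plexins inactivate, was at 5.42 against 22.1 FPKM, and cdk5, a kinase of the semaphorin response, at 2.11 against 10.7 FPKM. The GTPase gene rnd1b, under its older name rnd1l, was at 12.9 against 30.9 FPKM, and the kinase gene fes, at 7.13 FPKM, was listed at 0 in EGFP-positive cells. The GTPase genes rnd1a (27.2 against 25.9 FPKM, as rnd1) and rac1b (75.5 against 79.1 FPKM, as a clone name) were nearest to no difference.

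Of 18 actin regulators, 3 were higher, 1 was lower and 14 lay between, beside 22.9% and 26.5% of all rows called higher and lower. The list had a median log2 ratio of -0.07. Limk2, a kinase that inactivates cofilin, stood at 25.1 FPKM in EGFP-positive cells and 5.52 FPKM in EGFP-negative cells, and the GTPase gene rhoac at 439 against 160 FPKM. Pak1, a kinase downstream of Rac, was at 4.94 FPKM and listed at 0 in EGFP-negative cells, while the cofilin gene cfl2, at 25.2 FPKM, was listed at 0 in EGFP-positive cells. Pak2b (71.6 against 71.3 FPKM) and rhoab (172 against 176 FPKM) were level.

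Of 7 partners at the membrane, 2 were higher and 2 lower, beside 22.9% and 26.5% of all rows. Among rows above 0 in both libraries, as all 7 were, 17.8% were higher and 16.5% lower. Counts this small cannot be told apart from these shares. The integrin gene itgb1a (120.4 against 47.5 FPKM) and the Slit receptor gene robo1 (30.4 against 9.93 FPKM) were higher. Met, a receptor kinase that associates with class B plexins, was lower, at 4.34 FPKM in EGFP-positive cells and 18.7 FPKM in EGFP-negative cells. Itgb1b.1 was also lower, at 1.72 against 15.9 FPKM. Erbb2 (26.6 against 17.5 FPKM) and itgb1b (204 against 326 FPKM) lay between.

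Neuropilins also serve VEGF, the growth factor of vessels, and its genes were mostly lower. Of 7 VEGF ligands and receptors, 5 were lower and 1 higher, beside 26.5% and 22.9% of all rows. The list had a median log2 ratio of -2.20. The receptor genes kdrl (11.4 FPKM in EGFP-positive cells against 52.1 FPKM in EGFP-negative cells) and kdr (1.59 against 10.9 FPKM) were lower, and flt4 lay between (16.4 against 23.0 FPKM). Flt1 (5.07 FPKM), vegfaa (4.68 FPKM) and vegfc (3.93 FPKM) were listed at 0 in EGFP-positive cells, and vegfab (2.09 FPKM) in EGFP-negative cells, so 4 of the 7 differences rest on values listed at 0. Kdrl and flt4 are also on the endothelial list.

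**Figure D4:**
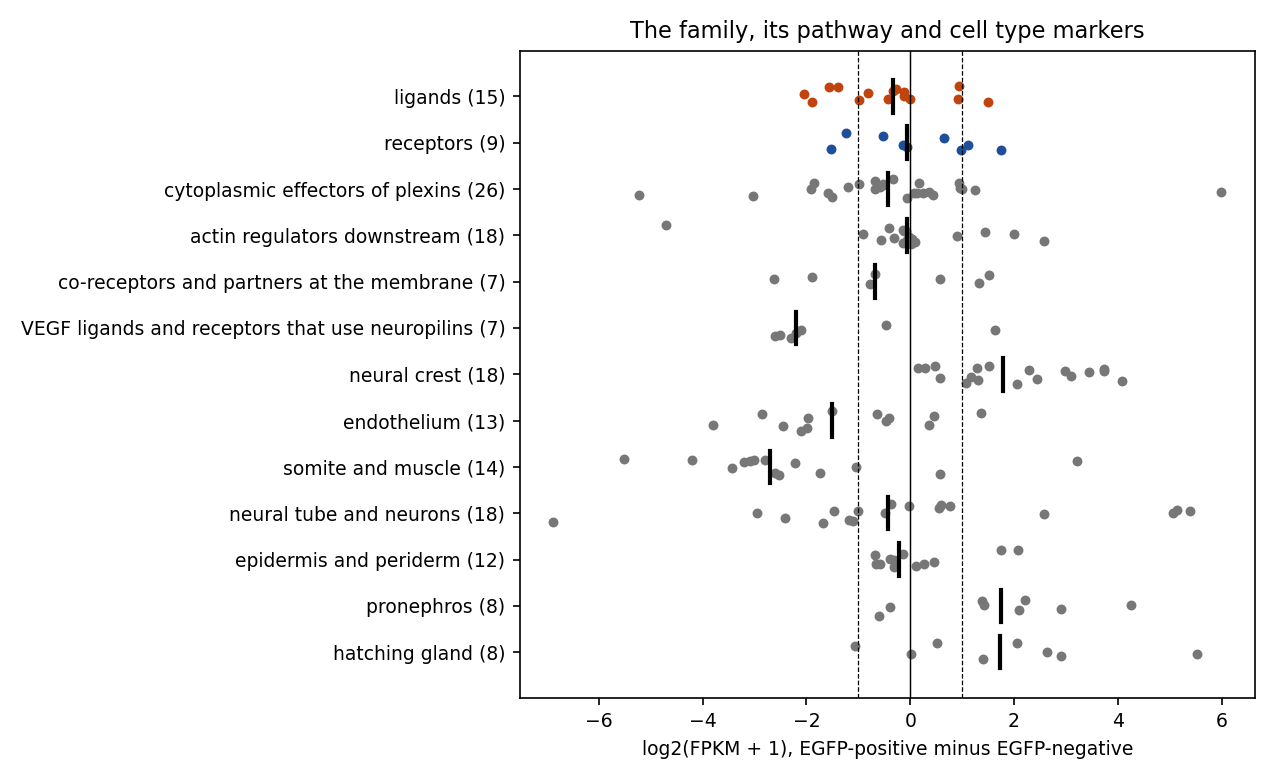
Log2 ratio (EGFP-positive minus EGFP-negative, FPKM + 1) of each measured gene of the family, of its pathway lists and of cell type marker lists, with the number of genes in brackets. Black bars are medians and dashed lines mark 2-fold. The receptor median (-0.07) and the ligand median (-0.33) lie near 0, between the crest markers (1.79) and the somite and muscle markers (-2.70).

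Markers of the remaining cell types were given the same count, beside 22.9% higher and 26.5% lower among all rows. Of 18 neural tube and neuron markers, 4 were higher and 8 lower, with a summed level of 483 against 590 FPKM. Dbx1b (117 FPKM), ascl1a (6.77 FPKM) and elavl4 (1.02 FPKM) were listed at 0 in EGFP-positive cells, while neurog1 (40.9 FPKM), olig4 (34.1 FPKM) and stmn1b (32.3 FPKM) were listed at 0 in EGFP-negative cells. Sox19a was at 81.6 against 115 FPKM. Of 12 epidermis and periderm markers, 2 were higher and none lower, with a summed level of 994 against 1141 FPKM, led by krt8 (348 against 552 FPKM) and krt4 (185 against 134 FPKM). Pronephros markers summed to 310 against 94.3 FPKM, led by pax2a (94.4 against 35.7 FPKM) and slc4a2a (86.7 against 17.9 FPKM). Hatching gland markers summed to 2174 against 921 FPKM, led by he1a (1004 against 159.9 FPKM) and cd63 (490 against 341 FPKM). Crest markers summed to 2243 against 806 FPKM. The part of pronephros and hatching gland cells in the levels of plxna3, nrp2a and sema5a was not tested.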

How the data were processed

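RNA was measured in 2 libraries, 1 per group, matched to the columns by the sample descriptions. The authors deposited FPKM per gene symbol. The submitters' processing notes name cutadapt, TopHat2 2.0.11, Cufflinks 2.2.1 and the build Zv9. The sources used here name no options, annotation or scaling between libraries. FPKM holds no total count, so depth and counting error are unknown.

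Log2 ratios used a pseudocount of 1 FPKM, which understates differences of low genes. Counts and medians used rows of at least 1 FPKM in either library (Python 3.11.15, pandas 2.3.3). An exact 0 can be a failed estimate, so no fold is given against it. The code for the ratio and call was checked on simulated data with large planted differences and little noise. That check does not cover calls near 2-fold or genes at low FPKM. Of the 27 members, 23 have a current RefSeq symbol and 4 an older one. Names and gene order came from RefSeq (GRCz12tu), and no coordinates are given because the builds differ. No sequences are shown. None of the 58 rows of joined symbols held a member. Near-identical duplicates can share reads.

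The members, lists and thresholds were chosen with earlier results of these data known. Every member is named. Of the pathway lists, genes called higher or lower and up to 2 nearest to no difference are named. Of each marker list the 2 with the highest FPKM are named, with sox10, foxd3 and tfap2a. The pathway genes fyna, gipc2 and chl1a were over 2-fold apart in plain FPKM but were not called. Cdh5, stab1 and the markers given as listed at 0 were chosen after their values were seen.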

Additional observations from a re-analysis of the deposited data

How the results depend on the processing

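No paired analysis was possible because each group has 1 library. For the same reason no library could be left out. The counts of 1 higher and 4 lower ligands and of 2 higher and 2 lower receptors, and the medians of -0.33 and -0.07, were recomputed under 8 alternatives. With a pseudocount of 0.1 FPKM, 3 ligands were higher (sema4ba and sema6a joining sema5a), and the medians were -0.35 for ligands and -0.068 for receptors. With a pseudocount of 5 FPKM, 0 ligands were higher and 2 lower, with medians of -0.24 and -0.065. Without a minimum the receptor median was -0.10, and with a minimum of 5 FPKM the ligand median was -0.42. Rescaling the EGFP-positive values so that rows above 0 in both had a median plain FPKM ratio of 1 gave medians of -0.35 and -0.10. Equal sums without rn7sk moved the median of all rows by -0.16, left 1 receptor higher (plxna3) and gave medians of -0.48 and -0.24. Leaving out values listed at 0 and adding joined rows had no member to act on. Only the pseudocounts and rescalings could move a member's ratio, and under these plxna3, nrp1b, plxnb2a, sema3aa and sema3d kept their calls. With a pseudocount of 5 FPKM sema3e had a log2 ratio of -0.97, and its call ended as those of sema4e and sema5a did. Sema3gb was called lower with a pseudocount of 0.1 FPKM and under both rescalings, down to -1.14. The read depth is unknown, so no counting error can be given.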

Other observations

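Rows under clone names that the RefSeq gene table ties to the family stood outside the naming rule. The row of sc:d411, today sema4c, was at 35.2 FPKM in EGFP-positive cells and 20.7 FPKM in EGFP-negative cells, above every class 4 ligand among the members. The row of si:ch211-106g4.2, today sema3b and the neighbour of sema3bl, was at 5.92 against 9.07 FPKM. Neither was 2-fold apart. The rows today named plxnb2a.2 and plxnb2a.3, which follow plxnb2a.1 in that gene order, were listed at 0 in both libraries.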
